A study of Mus musculus with 18 samples.

Results

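Lung CD11b+ cells of mice with an active BRAF under CD11c-Cre were compared with lung CD11b+ cells of control littermates. All genes of the array that could be named by 1 symbol were covered. The share of sorted cells that carried the active form was not measured. The comparison used the arrays titled for lung CD11b cells of each genotype: 2 from BRAF mice (replicates 1 and 2) and 2 from WT mice (replicates 1 and 3), so 4 of the 18 arrays in the series. In the other 14 arrays the same genotypes were profiled in lung CD103+ cells (4 arrays), liver CD11b+ cells (4 arrays) and bone marrow derived dendritic cells (BMDC, 6 arrays, marrow from mice of 5 weeks). The series addresses how active RAF, MEK and ERK signalling in dendritic cells affects their migration. Of 19752 genes measured, 15365 were above the low-intensity filter and were tested, and 52 of them differed between the genotypes.

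BRAF mice had the genotype BRAFV600E(CA-flox) with CD11c-Cre(positive), and WT mice had the same floxed allele with CD11c-Cre(neg). The groups therefore share the floxed allele and differ in Cre. Both were 14 weeks old and unmanipulated, and the cells were sorted as CD11b+ from dissected lung, with no further gate stated in the labels. The CD11c promoter drives Cre in every cell that uses it, which in lung includes dendritic cells and alveolar macrophages. The labels do not say that the replicates came from separate animals, so the p-values reflect array-to-array spread alone, which may be technical. That spread was estimated per gene over all 18 arrays, most of them from populations other than lung CD11b+ cells.

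BRAF is a kinase that passes signals from RAS to MEK and ERK, and the V600E form is active without RAS. Dendritic cells take up antigen in tissues and carry it to lymph nodes. On maturation they raise the chemokine receptor CCR7 and the actin-bundling protein fascin, which are known for their part in that journey. In lung, CD11b+ dendritic cells share the CD11b marker with monocytes, interstitial macrophages and neutrophils, and a sort on CD11b alone can hold all of these. In such sorted cells, fewer cells of a type and less RNA per cell cannot be told apart.

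Values are given as log2 intensity, on which a step of 1 is a factor of 2, and in the order BRAF replicate 1, BRAF replicate 2, WT replicate 1 and WT replicate 3 unless named. Median intensity was 95.45 to 98.78 on the 4 arrays. The label check followed the sort: Itgam, which encodes CD11b, read 11.43, 10.68, 10.73 and 10.65, and Itgax, which encodes CD11c, read 11.64, 12.13, 11.82 and 11.78. Itgae, which encodes CD103, stayed between 5.74 and 6.90, and the T cell gene Cd3e between 6.47 and 7.04. Transcripts of other lung cells were present on all 4 arrays, with the surfactant gene Sftpc at 8.01, 8.35, 8.90 and 10.25 and the endothelial gene Pecam1 at 9.33, 7.14, 8.13 and 7.73. The hepatocyte gene Alb read 8.23, 9.64, 8.11 and 6.14. Braf itself read 9.12, 8.65, 9.18 and 8.65, a difference of -0.03 ± 0.30 (SE), and was not called (limma, Benjamini-Hochberg adjusted p = 1). Its probes cannot separate mutant from normal Braf RNA.

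The BRAF arrays were less alike than the WT arrays. The difference between BRAF replicates 1 and 2 had an SD over genes of 0.46, with 86 genes over 2 log2 units apart. For WT replicates 1 and 3 the SD was 0.31, with 8 such genes. Genes known from Kupffer cells, the resident macrophages of liver, were high on BRAF replicate 1. Genes known from alveolar macrophages were highest on BRAF replicate 2, with a smaller rise on BRAF replicate 1. Cholesterol synthesis genes were low on BRAF replicate 1. These genes are described after the genes that both BRAF arrays share, and list medians that move with either array are given with and without it.

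The test called 52 genes, which is 0.338% of the 15365 tested. A gene was called at an adjusted p under 0.05 in a limma fit over all 18 arrays with Benjamini-Hochberg adjustment. Lower expression in BRAF was the more frequent call, with 41 genes lower (0.267%) and 11 higher (0.0716%). The differences ran from -4.37 to -1.05 among the genes that fell and from 1.32 to 5.28 among those that rose. At an unadjusted p under 0.05 the shares were 6.71% in all, 4.66% lower and 2.05% higher. In all 52 the BRAF arrays lay apart from the WT arrays, as they did for 46.4% of all genes tested (24.8% lower and 21.6% higher), and in 46 of them the gap was over 1 log2 unit. The median difference over all genes tested was 0.0032. In a fit with array weights 298 of the 15365 genes were called lower and 71 higher. List counts given with array weights below are to be set against those numbers.

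**Figure D1:**
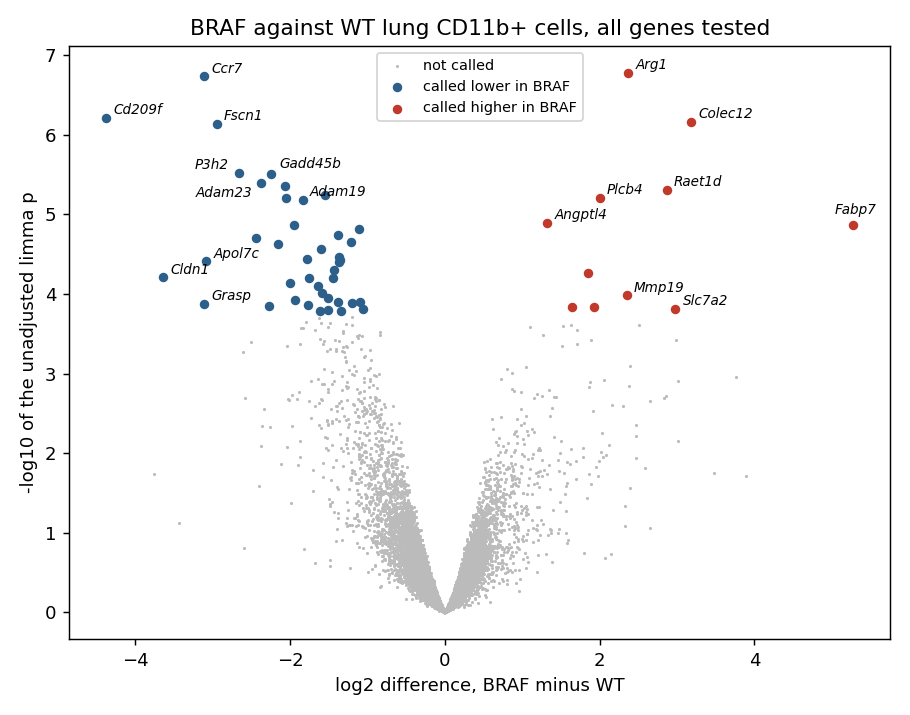
Each point is 1 of the 15365 genes tested, with the log2 difference (BRAF minus WT lung CD11b+ cells) on the x axis and -log10 of the unadjusted limma p on the y axis. Blue points are the 41 genes called lower and red points the 11 called higher, with Cd209f at -4.37 and Fabp7 at 5.28 as the ends of the range of called differences.

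The genes with the largest rises were Fabp7 and Colec12. Fabp7, a fatty acid binding protein best known from brain glia, read 13.39 and 11.71 on the BRAF arrays and 7.68 and 6.87 on the WT arrays. The gap of 4.03 between the nearest arrays was the widest of any called gene, and BRAF replicate 1 stood higher than BRAF replicate 2. The difference of 5.28 ± 0.83 (limma adjusted p = 0.0123) is a 38.78-fold ratio of geometric means. Fabp7 lost its call without BRAF replicate 1 and without either WT array. Colec12, a collectin scavenger receptor that takes up oxidized lipoproteins and microbes, read 9.86 and 9.63 against 6.48 and 6.65, with each genotype within 0.3 of itself. Its difference was 3.18 ± 0.39 (limma adjusted p = 0.00224), and it was called in all 4 fits that left out 1 lung CD11b+ array.

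Arginine handling was represented by an enzyme and a transporter. Arg1, the arginase that turns arginine into ornithine and urea, read 8.04 and 8.28 in BRAF and 5.99 and 5.59 in WT. Slc7a2, which brings cationic amino acids into the cell, read 9.16 and 9.46 against 6.59 and 6.08. The genotypes did not overlap for either gene. Arg1 rose by 2.37 ± 0.26 (limma adjusted p = 0.00141) and was called in all 4 fits without 1 array, while Slc7a2 rose by 2.98 ± 0.59 (adjusted p = 0.0481) and was called in 0 of them. These were the only called genes among 22 of the arginine and polyamine list, whose median difference was 0.05. Arg2, the mitochondrial arginase, read 6.28, 5.84, 6.15 and 5.72, and Odc1, which makes putrescine from ornithine, read 7.08, 7.39, 6.63 and 7.01, both with an adjusted p of 1 in limma.

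The other genes that rose encode a stress ligand, a protease and signalling or metabolic enzymes. Raet1d, whose product is bound by the NKG2D receptor of NK cells, read 7.87 and 7.72 in BRAF and 4.76 and 5.10 in WT, a rise of 2.87 ± 0.41 (limma adjusted p = 0.00715). Raet1 genes are near-identical copies, so its probes may also read other members. Mmp19, a secreted matrix metalloproteinase, read 9.31 and 10.12 against 7.54 and 7.18, and Plcb4, a phospholipase C that acts below G proteins, read 7.97 and 8.84 against 6.40 and 6.41. Both BRAF arrays were above both WT arrays, and for Plcb4 the WT arrays were 0.01 apart. Angptl4, a secreted inhibitor of lipoprotein lipase, read 7.42 and 7.61 in BRAF and 6.11 and 6.28 in WT, a rise of 1.32 ± 0.21 (limma adjusted p = 0.0123). Sh3bgrl2, Adcy3 (an adenylyl cyclase) and Cmbl (a hydrolase) rose by 1.85, 1.64 and 1.93. Of these 6 genes beside Raet1d, only Plcb4 was called in any of the fits without 1 array, in 2 of 4.

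**Figure D2:**
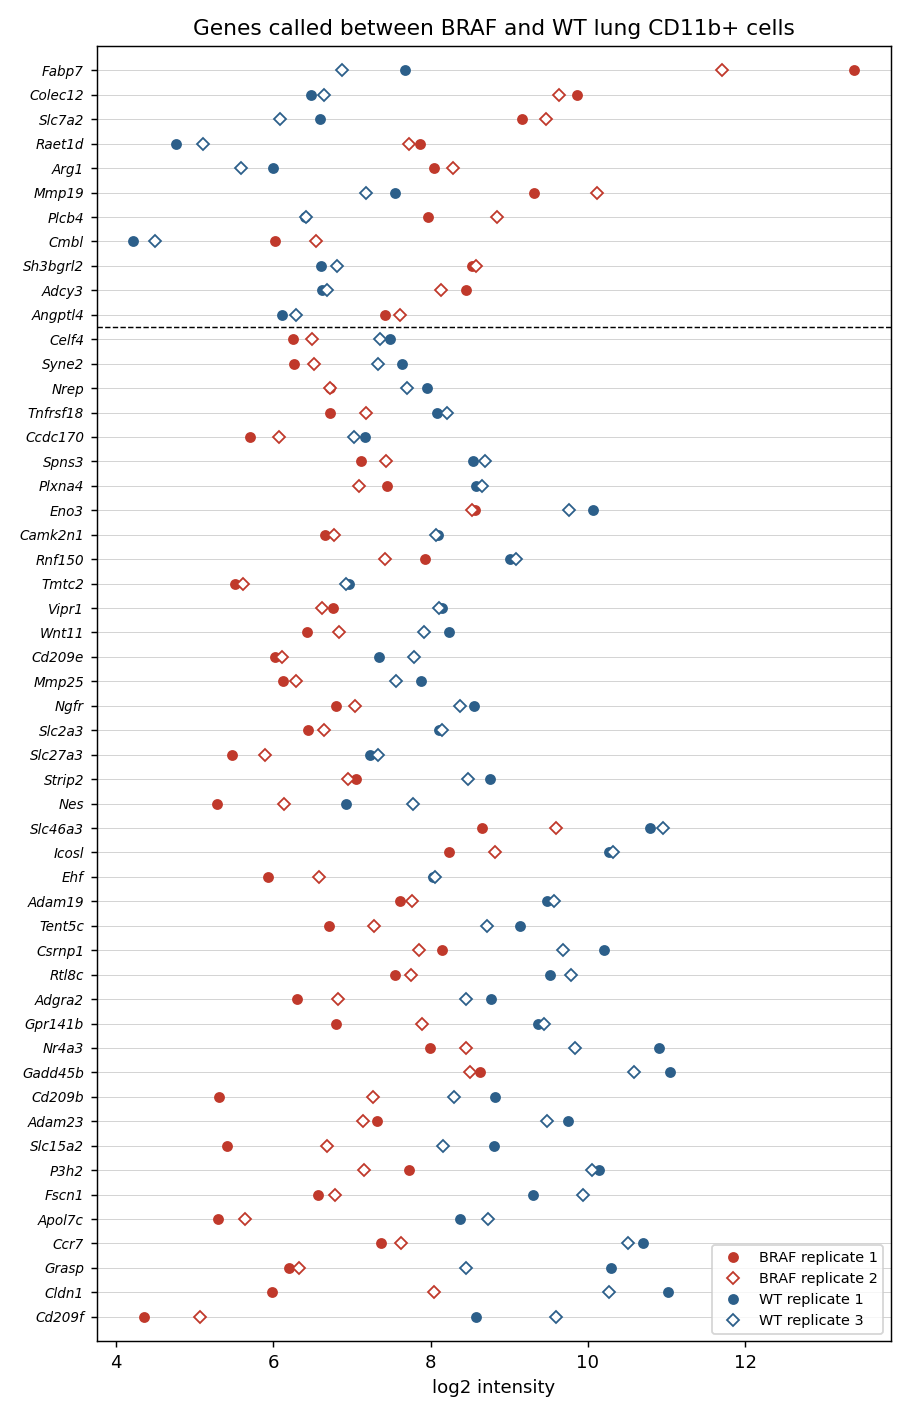
Log2 intensity of the 52 called genes on each of the 4 lung CD11b+ arrays, ordered by the difference, with genes called higher above the dashed line. Red marks are BRAF replicates 1 (filled) and 2 (open), blue marks WT replicates 1 (filled) and 3 (open), and no red mark lies between the blue marks of any gene.

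Among the genes that fell, 7 belong to the list of dendritic cell maturation and migration. Ccr7 read 7.37 and 7.62 in BRAF and 10.70 and 10.51 in WT, and Fscn1, which encodes fascin, read 6.57 and 6.78 against 9.30 and 9.94. The arrays of each genotype lay close together and the genotypes were over 2.5 apart for both genes. The differences were -3.11 ± 0.34 for Ccr7 (limma adjusted p = 0.00141) and -2.95 ± 0.36 for Fscn1 (adjusted p = 0.00224), and both were called in all 4 fits without 1 array. Of 38 tested genes in the maturation and migration list, 16 were lower and 1 higher at an unadjusted limma p under 0.05. With array weights 16 were called lower. Without weights 7 were called lower and 0 higher, against 0.267% called lower among all genes. This list, like the others, was chosen with earlier results of these data known, so the contrast is not a test. The list's median difference was -0.50, with 32 of 38 negative, against 49.5% negative over all genes. It ranged from -0.78 to -0.58 in the fits without 1 array. Dropping BRAF replicate 2 kept the count at 7 lower, dropping BRAF replicate 1 or WT replicate 3 left 3, and dropping WT replicate 1 left 2.

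The other members of that list that fell were Adam23, Apol7c, Cldn1, Eno3 and Icosl. Cldn1, a tight junction claudin, read 5.98 on BRAF replicate 1, 8.04 on BRAF replicate 2, and 11.02 and 10.27 in WT. The BRAF arrays were 2.06 apart, and its difference of -3.64 ± 0.66 (limma adjusted p = 0.0294) was called in 1 of 4 fits without 1 array. Apol7c, of the apolipoprotein L family, read 5.30, 5.63, 8.37 and 8.73, and Eno3, the muscle form of enolase, read 8.57, 8.53, 10.06 and 9.76. Icosl, the ligand for the T cell costimulator ICOS, read 8.24 and 8.82 against 10.27 and 10.32, a difference of -1.77 ± 0.35 (limma adjusted p = 0.0471). In all of these the genotypes lay apart by over 1 log2 unit. Ccl22, a chemokine of mature dendritic cells that attracts T cells through CCR4, had a difference of -2.58 ± 0.69 that was not called (limma adjusted p = 0.179), with 6.88 and 8.31 in BRAF and 10.42 and 9.93 in WT. Its partner Ccl17 read 8.76 and 11.20 on the BRAF arrays, with 12.41 and 12.28 in WT (difference -2.36, adjusted p = 0.252). Ccl5 read 8.68, 8.72, 10.24 and 10.89 and stood at -1.86 ± 0.39, just outside the threshold (limma adjusted p = 0.0619). Cd83, a surface marker of mature dendritic cells, read 9.84, 9.99, 11.63 and 11.32 without a call (limma adjusted p = 0.148).

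B cell markers were lower on the BRAF arrays beside these genes. The list had 16 tested genes, with 14 negative and 0 called in limma (3 lower at an unadjusted p under 0.05, and 2 called lower with array weights), and a median of -0.66. Dropping WT replicate 1 gave -0.20 and dropping WT replicate 3 gave -1.21. Its summed intensity was 3237 and 2878 on the BRAF arrays and 5346 and 4063 on the WT arrays. Ms4a1, which encodes CD20, read 5.91, 5.53, 8.33 and 7.77. Its part in the results was not tested.

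Of the lectin genes of the Cd209 cluster on chromosome 8, Cd209f, Cd209b and Cd209e fell. CD209 proteins (DC-SIGN family) are C-type lectins that bind mannose and fucose on microbes. The array measured 7 of them, which lie between 3743395 and 4137707 on chromosome 8 of GRCm38.p6. Cd209f read 4.35 and 5.07 in BRAF and 8.57 and 9.59 in WT, a difference of -4.37 ± 0.53 (limma adjusted p = 0.00224) that was called in all 4 fits without 1 array. It was the gene with the largest called fall, a 20.71-fold ratio. Cd209b read 5.31 on BRAF replicate 1, 7.26 on BRAF replicate 2, and 8.81 and 8.30 in WT. Cd209e read 6.01, 6.11, 7.35 and 7.79, and both fell (differences -2.27 ± 0.45 and -1.51 ± 0.30, limma adjusted p = 0.0471 and 0.0481). Cd209c, Cd209d and Cd209g had differences of -1.87, -2.40 and -0.90 with no call. Cd209d read 6.75 and 9.40 in BRAF against 10.59 and 10.35, with the first BRAF array the lowest. Cd209a, the member most used by CD11b+ dendritic cells, stayed high, at 11.47, 12.75, 12.95 and 12.91. The family members are similar in sequence, and the share of signal that a probe set reads from a neighbour was not tested.

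Over all 35 C-type lectin genes tested, 3 were called lower and 1 higher (Colec12), and the median was 0.27. Without BRAF replicate 1, WT replicate 1 or WT replicate 3 the count lower was 1, Cd209f. Dropping BRAF replicate 2 gave a median of -0.07 and 3 lower and 2 higher calls. Clec4n (dectin-2) read 9.98 and 10.88 against 8.16 and 8.79, and Clec4d read 9.33 and 9.27 against 7.73 and 7.11. The genotypes did not overlap for either gene (limma adjusted p = 0.461 and 0.557). Mgl2, a galactose-type lectin of CD11b+ dendritic cells, read 9.55, 10.96, 12.19 and 12.28 (difference -1.98 ± 0.59, adjusted p = 0.25).

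Cell surface proteases and adhesion or guidance receptors made up a further group. Adam23, a disintegrin without catalytic activity, read 7.32 and 7.14 in BRAF and 9.74 and 9.48 in WT. Adam19, an active metalloprotease, read 7.62 and 7.77 against 9.48 and 9.57. Both fell, each genotype within 0.3 of itself, with differences of -2.38 ± 0.34 and -1.84 ± 0.27 (limma adjusted p = 0.00715 each). Mmp25, a membrane-anchored metalloproteinase, fell by 1.51 ± 0.29. With the rise of Mmp19, the list of matrix proteases and inhibitors had 3 genes called lower and 1 higher of 32, with a median of 0.15. The calls in this list changed with every array left out, and Mmp19 kept its call in none of those fits. Dropping BRAF replicate 1 gave a median of -0.03. Mmp8, the neutrophil collagenase, read 7.05 on BRAF replicate 1, 9.69 on BRAF replicate 2, and 5.61 and 5.10 in WT without a call (difference 3.01 ± 0.76, limma adjusted p = 0.141). The genes for the adhesion receptor Adgra2, the semaphorin receptor Plxna4 and the neurotrophin receptor Ngfr fell, with differences of -2.05, -1.35 and -1.55. For Adgra2 the arrays read 6.30 and 6.82 against 8.77 and 8.45. Nes (an intermediate filament), Syne2 (which ties the nucleus to actin) and Grasp (a scaffold for membrane receptors) also fell. Grasp read 6.20 and 6.32 in BRAF, 10.30 on WT replicate 1 and 8.45 on WT replicate 3, so its difference of -3.11 moves with the WT array chosen.

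Of the genes induced early after stimulation, Gadd45b and Nr4a3 fell. Gadd45b, a stress sensor that NF-kB induces, read 8.63 and 8.50 in BRAF and 11.04 and 10.59 in WT. Nr4a3, an orphan nuclear receptor of the immediate early class, read 7.99 and 8.45 against 10.91 and 9.83. The differences were -2.25 ± 0.31 for Gadd45b (limma adjusted p = 0.00677) and -2.15 ± 0.36 for Nr4a3 (adjusted p = 0.0165). Csrnp1, a nuclear protein induced by growth signals, fell by 1.95 ± 0.31, with 8.14 and 7.86 against 10.20 and 9.69. Of 32 immediate early genes tested, 2 were called lower and 29 were negative, and the median was -0.95 (-1.02 to -0.83 without 1 array). Without WT replicate 1 the count called was 0, and without BRAF replicate 1 it was 1. In 25 of them the BRAF arrays lay below both WT arrays, against 24.8% of all genes. At an unadjusted limma p under 0.05, 19 were lower and 1 higher, and array weights called 15 lower. Fosb read 9.34, 9.23, 11.64 and 10.67, and Atf3 read 9.73, 10.39, 11.87 and 11.52. The BRAF arrays were below the WT arrays for both, and neither was called (limma adjusted p = 0.074 and 0.185). Fosl1, which ERK is known to induce, was 1 of 3 positive members, with 6.77, 6.60, 6.25 and 5.96 (difference 0.58, adjusted p = 0.499).

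The NF-kB genes showed a like shift with 0 of 25 called in limma, of which 13 were lower and 0 higher at an unadjusted p under 0.05. With array weights in limma 8 of the 25 were called lower, where 298 of all 15365 genes were. With trend and robust variances 0 of the 25 were called. The median of the list was -0.63 (-0.71 to -0.58 without 1 array), with 22 of 25 negative. Tnfaip3, the A20 deubiquitinase that ends NF-kB signals, read 9.48 and 9.09 in BRAF and 11.38 and 10.87 in WT. The subunit genes Rel and Relb read 10.91, 11.26, 12.46, 11.88 and 7.05, 7.25, 8.29, 8.11. For all 3 the BRAF arrays were below the WT arrays, with adjusted p values of 0.0619, 0.0781 and 0.0903 in limma. Nfkbia, the inhibitor that NF-kB itself induces, read 11.39, 10.96, 12.07 and 11.84 (difference -0.78, adjusted p = 0.436). Tnfaip2 ran the other way, at 9.14 and 9.21 against 8.56 and 7.95 (adjusted p = 0.825). Gene lists share members, so their medians and counts are not separate. Relb, Nfkb2, Traf1 and Birc2 are in both this list and the maturation and migration list.

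Promoters of the genes that fell were searched for NF-kB and AP-1 sites, since genes of those factors are in the lists with negative medians above. RefSeq promoter windows of GRCm38.p6, each 300 bases around a start and mostly before it, were found for 30 of the 41 genes that fell, in 37 windows. An NF-kB site on either strand was in 4 of these windows (10.8%), against 8.46% of all 32851 windows. The AP-1 sequence TGANTCA was in 3 of them (8.11%), against 7.81%. Both shares lay near those of all windows. Icosl and Adam19 are shown since they are among the genes that fell and hold a match. Capitals mark the NF-kB match, which in Adam19 is a pair of overlapping matches. The Icosl window is chr10:78069118-78069417 (plus strand) and the Adam19 window is chr11:46055734-46056033 (plus strand).
Icosl: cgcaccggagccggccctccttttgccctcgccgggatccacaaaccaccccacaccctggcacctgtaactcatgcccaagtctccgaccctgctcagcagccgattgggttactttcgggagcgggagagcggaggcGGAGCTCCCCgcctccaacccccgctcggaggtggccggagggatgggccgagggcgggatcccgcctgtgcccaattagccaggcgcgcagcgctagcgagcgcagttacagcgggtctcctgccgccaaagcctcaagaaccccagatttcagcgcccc
Adam19: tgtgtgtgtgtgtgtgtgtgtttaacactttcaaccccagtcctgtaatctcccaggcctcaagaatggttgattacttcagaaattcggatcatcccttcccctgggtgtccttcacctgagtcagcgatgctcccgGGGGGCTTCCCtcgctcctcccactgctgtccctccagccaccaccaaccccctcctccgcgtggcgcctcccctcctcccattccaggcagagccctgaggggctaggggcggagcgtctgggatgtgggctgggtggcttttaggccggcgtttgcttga

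Among the genes that rose, 6 had RefSeq windows, 8 in all. The PU.1 sequence AGGAAGT, named for the ETS factor of myeloid cells, was in 2 of the 8 windows, against 9.35% of all windows, and in 2.7% of the windows of genes that fell. The general ETS sequence CGGAAGT was in 0 windows of either set, against 6.42%. Fabp7 is shown as the gene with the largest rise. Its window is chr10:57784673-57784972 (plus strand), with the PU.1 match in capitals, read on the other strand.
Fabp7: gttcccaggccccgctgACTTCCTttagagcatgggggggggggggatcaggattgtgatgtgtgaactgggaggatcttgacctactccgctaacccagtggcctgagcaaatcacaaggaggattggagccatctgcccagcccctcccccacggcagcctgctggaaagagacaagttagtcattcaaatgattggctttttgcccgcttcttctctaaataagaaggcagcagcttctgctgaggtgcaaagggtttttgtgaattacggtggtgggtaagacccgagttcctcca

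Transporters and enzymes of metabolism were also among the genes that fell. Slc15a2, which imports di- and tripeptides, read 5.41 and 6.68 in BRAF and 8.80 and 8.16 in WT, a difference of -2.44 ± 0.40 (limma adjusted p = 0.0154). Slc46a3, a lysosomal transporter, read 8.65, 9.59, 10.79 and 10.96, and the glucose transporter gene Slc2a3 read 6.44, 6.64, 8.11 and 8.14. Slc27a3, of the fatty acid transport protein family, read 5.48, 5.89, 7.23 and 7.33. All 3 fell, with differences of -1.76, -1.59 and -1.60, and in each the genotypes were over 1 log2 unit apart. P3h2, a prolyl hydroxylase of collagen, fell by 2.65 ± 0.37 (7.73 and 7.16 against 10.14 and 10.05, limma adjusted p = 0.00677). Tent5c, a poly(A) polymerase, fell by 1.93, and the orphan receptor gene Gpr141b fell by 2.06. Ehf, an ETS factor, fell by 1.78, with 5.93 and 6.58 against 8.03 and 8.05.

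Signalling genes with smaller falls completed the called set. Tnfrsf18, which encodes the receptor GITR, read 6.72, 7.18, 8.08 and 8.21, and Vipr1, a receptor for vasoactive intestinal peptide, read 6.76, 6.62, 8.15 and 8.11. Wnt11, a secreted WNT ligand, read 6.43, 6.84, 8.23 and 7.91. All 3 fell, with differences of -1.20, -1.43 and -1.44. The remaining 9 genes that fell were Rtl8c, Strip2, Tmtc2, Rnf150, Camk2n1, Spns3, Ccdc170, Nrep and Celf4, with Rtl8c the most and Celf4 the least changed (difference -1.05).

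Genes that mark conventional dendritic cells were lower as a list, mostly without single calls. Of 34 tested, 21 were lower and 0 higher at an unadjusted p under 0.05 in limma, against 4.66% lower among all genes. With array weights 14 were called lower. Without weights 2 were called (Ccr7 and Adam19), 32 were negative, and the median was -0.95. The count called was 5 without BRAF replicate 2 and 1 without any of the other 3 arrays. Dropping BRAF replicate 1 gave -0.61 and dropping BRAF replicate 2 gave -1.34. Flt3, the receptor for the growth factor of dendritic cells, read 7.71 and 8.89 in BRAF and 9.44 and 9.81 in WT. It was lower on the BRAF arrays, and lowest on replicate 1, without a call (limma adjusted p = 0.16). The list for CD11b+ (type 2) dendritic cells had 0 of 25 called in limma, with 7 lower and 1 higher at an unadjusted p under 0.05, 20 negative and a median of -0.79. With array weights 5 were called lower, and without BRAF replicate 2 the count was 2. Dropping BRAF replicate 1 moved that median to -0.41, and dropping replicate 2 to -0.78. Irf4, a transcription factor of these cells, read 8.14 on BRAF replicate 1 and 9.38, 9.88 and 9.48 on the other arrays. The list for CD103+ (type 1) dendritic cells had 11 of 23 negative and a median of 0.11, which was -0.05 without WT replicate 1.

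Of 40 transcription factor genes known from dendritic cells and macrophages, 1 was called (Nr4a3, lower), 31 were negative and the median was -0.55. The call was lost when BRAF replicate 1 or WT replicate 1 was dropped. Runx3 read 8.69 and 9.16 against 10.66 and 10.16 (difference -1.49 ± 0.33, limma adjusted p = 0.0781). Tfec, of the MITF family used by macrophages and osteoclasts, read 9.92 and 10.06 in BRAF and 7.16 and 7.65 in WT. The genotypes were over 2 apart, but the spread of Tfec in other groups was wide, and it was not called (difference 2.58 ± 0.94, limma adjusted p = 0.465). Gpnmb, a lysosomal glycoprotein that MITF factors induce, read 10.50 and 9.87 against 7.29 and 7.05 (difference 3.02, adjusted p = 0.327).

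Some antigen presentation genes were high on all arrays, while most of the class II list was lower in BRAF. The class II genes H2-Aa, H2-Ab1 and Cd74 read between 12.96 and 13.53 on all 4, and of 16 genes in the class II list 0 were called in limma, with 5 lower and 0 higher at an unadjusted p under 0.05. The median of that list was -0.33 with 14 negative, and array weights called 2 lower. In 13 of the 16 both BRAF arrays lay below both WT arrays and in 2 above, against 24.8% and 21.6% of all genes. Ciita, the factor that switches class II genes on, read 9.03 and 9.67 against 10.34 and 10.46 (adjusted p = 0.739). Costimulatory genes had 1 of 21 called lower (Icosl) and a median of -0.22. Dropping BRAF replicate 1, WT replicate 1 or WT replicate 3 left 0 calls, and dropping BRAF replicate 2 gave 2 lower calls and a median of -0.02. Cd86, the ligand of CD28, read 9.73, 9.79, 10.39 and 9.94, with an adjusted p of 1.

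Of 37 cytoskeleton and motility genes, 34 were negative with a median of -0.46 (-0.45 to -0.39 without 1 array), and 2 were called lower (Fscn1 and Grasp). Among chemotactic receptors, Ccr7 was the 1 gene called of 27, and the median was -0.26. Ptger4, a prostaglandin E2 receptor, read 9.13 and 9.31 against 10.71 and 10.36 (difference -1.32 ± 0.28, limma adjusted p = 0.0634). Gpr183, the oxysterol receptor that positions dendritic cells, read 8.51, 9.48, 10.21 and 10.28 (adjusted p = 0.227). Chemokine genes had 0 of 33 called in limma, with 4 higher and 7 lower at an unadjusted p under 0.05 and a median of 0.10. With array weights 3 were called higher and 5 lower. Cxcl9, a chemokine induced by interferon gamma, read 11.90 and 11.33 in BRAF, 8.61 on WT replicate 1 and 10.03 on WT replicate 3 (difference 2.30, adjusted p = 0.19).

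The ERK pathway's own genes and known ERK targets did not move together. Of 31 ERK target genes 0 were called in limma, with 5 higher and 4 lower at an unadjusted p under 0.05, and 3 were called lower with array weights. Their median was 0.09, and -0.05 without BRAF replicate 1. Dusp5, a nuclear phosphatase that ERK induces and that acts on ERK, read 8.98 and 8.36 in BRAF and 10.52 and 9.66 in WT (difference -1.42 ± 0.31, limma adjusted p = 0.0715). Spry4, a feedback inhibitor of the pathway, read 7.51, 6.46, 6.30 and 5.94, and Etv1, an ETS factor, read 9.09, 8.41, 7.63 and 7.97. Both were higher on both BRAF arrays, most on replicate 1, and neither was called (adjusted p = 0.519 and 0.565). In the list of RAS, RAF, MEK and ERK genes 0 of 25 were called in limma, with 1 higher and 4 lower at an unadjusted p under 0.05, and the median was -0.10. With array weights 1 was called higher and 3 lower, and with trend and robust variances 1 lower. It was 0.08 without WT replicate 1. Rasgrp3, which activates RAS, stood at -1.61 ± 0.35 (limma adjusted p = 0.0708). Cell cycle genes had a median of -0.08, which was 0.16 and -0.34 with BRAF replicate 1 or 2 dropped, and -0.27 and 0.17 with WT replicate 1 or 3 dropped. Bcl2l1, which encodes BCL-XL, read 8.06, 7.71, 7.66 and 7.76.

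**Figure D3:**
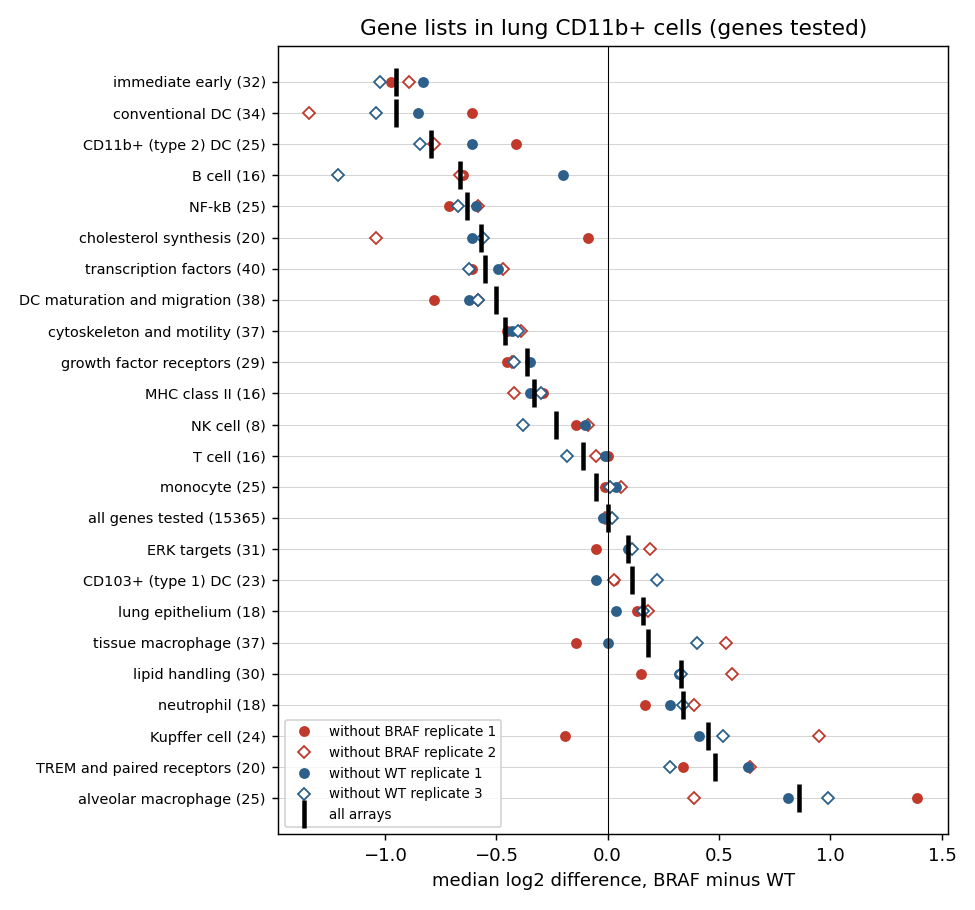
Median log2 difference (BRAF minus WT) of 23 gene lists and of all 15365 genes tested, with the number of genes tested in brackets. Black bars use all arrays, and the marks show the median without 1 of the 4 arrays. The immediate early list stays between -1.02 and -0.83, and the Kupffer cell list moves from -0.19 to 0.95.

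Macrophage genes differed between the BRAF arrays. Of 25 alveolar macrophage genes 23 were positive, with a median of 0.86, and 1 was called (Slc7a2). In 15 of them both BRAF arrays lay above both WT arrays and in 0 below, against 21.6% and 24.8% of all genes. At an unadjusted limma p under 0.05, 8 were higher and 0 lower, and array weights called 4 higher. Dropping BRAF replicate 1 raised the median to 1.39, and dropping replicate 2 lowered it to 0.39. Their summed intensity was 19501 on BRAF replicate 1, 32391 on BRAF replicate 2, and 11732 and 12623 on the WT arrays. Chil3, a chitinase-like protein, read 8.20, 11.38, 7.10 and 4.70, and Car4, a membrane carbonic anhydrase, read 6.67 on BRAF replicate 1, 10.86 on BRAF replicate 2, and 6.48 and 6.37 in WT. The protease gene Ctsk and the proton pump subunit gene Atp6v0d2, both also known from osteoclasts, read 8.76, 11.39, 6.77, 5.84 and 9.35, 10.92, 6.87, 6.45. For these 2 genes BRAF replicate 1 was also above WT, and neither was called (limma adjusted p = 0.132 and 0.495). Marco, a defining receptor of alveolar macrophages, read 6.80, 6.43, 6.19 and 6.09, above the array median (6.58 to 6.63) only on BRAF replicate 1. The part of alveolar macrophages in the genes that rose was not tested.

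The Kupffer cell list was high on BRAF replicate 1. With all arrays 0 of its genes were called in limma (4.0 higher and 1.0 lower at an unadjusted p under 0.05, and 1 called higher with array weights), and 7 of 24 were called higher when BRAF replicate 2 was dropped. Its median over the 24 genes was 0.45, with -0.19 when BRAF replicate 1 was dropped and 0.95 when replicate 2 was. Its summed intensity was 21883, 5381, 8075 and 8607. Vsig4, a complement receptor, read 11.94 on BRAF replicate 1, 5.87 on BRAF replicate 2, and 7.90 and 7.98 in WT. Slc40a1, the iron exporter ferroportin, read 9.91 on BRAF replicate 1 and 5.91 to 6.25 on the others. In both genes BRAF replicate 2 did not stand above WT. Clec1b, the CLEC-2 receptor, was above WT on both BRAF arrays (9.30 and 6.24 against 4.85 and 4.71), high on the first and below the array median on the second, with a difference of 2.99 ± 0.65 that was not called (limma adjusted p = 0.0715). Clec4f, the lectin that defines Kupffer cells, read 6.63, 6.36, 6.24 and 6.10. Genes of tissue macrophages in general had a median of 0.18, or -0.14 with that array dropped.

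Calls of single genes depended on the arrays used. Without BRAF replicate 1 the test called 16 genes, 10 of them among the 52. Without BRAF replicate 2 it called 97, 30 of them among the 52, and of the 97 as many as 47 were higher. Without WT replicate 1 it called 7 genes and without WT replicate 3 it called 18, of which 5 and 15 were among the 52. With no overlap between the genotypes, leaving out 1 array cannot turn the direction of any of the 52. Ccr7, Fscn1, Cd209f, Colec12 and Arg1 kept their call in all of these fits without 1 array. In fits of only the 8 lung arrays, with or without the replicate number as a block, Fscn1, Cd209f and Colec12 were not called.

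Cholesterol synthesis genes were low on BRAF replicate 1. All 20 genes tested had a negative difference and 0 were called in limma, with 5 lower and 0 higher at an unadjusted p under 0.05. Array weights called 1 of them lower, and the fit without BRAF replicate 2 called 3. The median was -0.57, with -0.09 when BRAF replicate 1 was dropped and -1.04 when replicate 2 was. Idi1, an isomerase of the pathway, read 6.58 on BRAF replicate 1 and 9.15, 9.13 and 9.16 on the other arrays. Srebf2, which encodes the factor that switches the pathway on, read 8.31 and 9.21 against 10.27 and 10.26. Hmgcs1, which makes the first dedicated intermediate, read 7.19, 8.78, 8.91 and 8.99. Lipid handling genes had 24 of 30 positive with a median of 0.33 and 1 called (Fabp7). Dropping BRAF replicate 1 gave a median of 0.15 and 0 calls, and dropping replicate 2 gave 0.56 and 2 calls. Their summed intensity was 52805 and 28129 on the BRAF arrays and 23498 and 25471 on the WT arrays. Dropping either WT array also left 0 calls. Nr1h3, the sterol sensor LXR alpha, read 10.07 on BRAF replicate 1 and 7.64 to 7.69 on the other arrays.

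**Figure D4:**
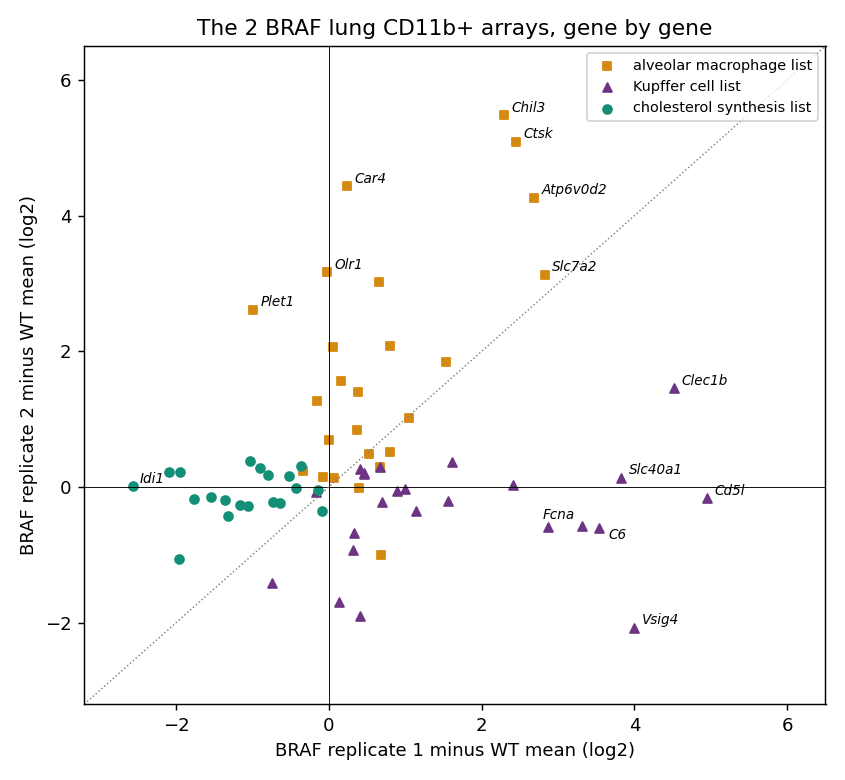
Log2 difference of BRAF replicate 1 (x axis) and of BRAF replicate 2 (y axis) from the mean of the WT lung CD11b+ arrays, with 1 point per gene of the alveolar macrophage (orange squares), Kupffer cell (purple triangles) and cholesterol synthesis (green circles) lists. Genes equal on both BRAF arrays lie on the dotted line. Most orange points lie above it, with Chil3 at 11.38 on replicate 2 and 8.20 on replicate 1, and most purple points below it.

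Other cell types had lists with few calls. Neutrophil genes had a median of 0.34 with 13 of 18 positive and 0 called in limma, where 2 were higher and 3 lower at an unadjusted p under 0.05 and array weights called 1 higher. Plasma cell and plasmacytoid dendritic cell genes had 12 of 16 negative with a median of -0.52 (-0.55 to -0.42 without 1 array) and summed to 5513 and 4611 in BRAF against 6282 and 6620 in WT. In that list 0 were called in limma, with 3 lower and 0 higher at an unadjusted p under 0.05 and 0 called with array weights. Hepatocyte genes had 15 of 16 positive with a median of 0.35 (0.23 to 0.42 without 1 array) and summed to 5687, 3510, 4586 and 4555. The part of these cells in the results was not tested. T cell, NK cell and lung epithelial genes had medians of -0.11, -0.23 and 0.16, with -0.18 to 0.00, -0.38 to -0.09 and 0.04 to 0.18 without 1 array. Of 20 TREM and paired receptor genes 18 were positive with a median of 0.48, among them Trem1 (10.11 and 9.80 against 8.99 and 7.69, limma adjusted p = 0.449). Among cytokines, Il1a, an alarmin, read 10.71 and 10.82 in BRAF and 8.66 and 7.21 in WT (difference 2.83 ± 0.76, adjusted p = 0.179), and Il6 read 5.44 and 4.68 against 7.11 and 6.84 (difference -1.91, adjusted p = 0.18). The genotypes did not overlap for either gene.

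The 52 genes were then read in the other populations, whose arrays entered the filter and the estimate of the spread but not the genotype difference in lung CD11b+ cells. Of the 11 that rose, 11 were positive in lung CD103+ cells, 7 in liver CD11b+ cells and 9 in BMDC, against 35%, 56.3% and 50.4% of all genes. Of the 41 that fell, 35, 39 and 21 were negative, against 65%, 43.7% and 49.6% of all genes. Their median differences were smaller than in lung CD11b+ cells. For the genes that rose the median was 2.35 in lung CD11b+ cells, 1.20 in lung CD103+ cells, 0.10 in liver and 0.46 in BMDC. For those that fell it was -1.76, -0.61, -0.52 and -0.17. These medians are largest where the genes were chosen, which the choice itself favours. In lung, CD11b+ and CD103+ arrays of the same genotype and number deviated together, so they may not be independent.

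Few of the genes were called elsewhere. Over all genes tested, 0.0456% were called higher and 0.039% lower in lung CD103+ cells, 0.143% and 0.0716% in liver, and 0.332% and 0.189% in BMDC. Colec12 was called in lung CD103+ cells (2.87, limma adjusted p = 0.00732), but stood at -0.02 in liver and 0.40 in BMDC. Fabp7 stood at 3.75, 5.38 and 2.04 in lung CD103+, liver and BMDC and was called in liver (limma adjusted p = 0.0214), while Plcb4 stood at 0.59, 1.62 and 3.15 and was called in liver and BMDC. Arg1 and Raet1d were also called in BMDC (4.73 and 1.96). Among the genes that fell, Ccr7 and Vipr1 were called in lung CD103+ cells (-2.03 and -1.49), Slc46a3 in liver (-1.67), and Ccr7, Nr4a3 and Slc27a3 in BMDC (-1.93, -2.29 and -1.78). Fscn1 stood at -1.99 in lung CD103+ cells, just outside the threshold (limma adjusted p = 0.0573). Cd209f stood at 0.65, -0.05 and 0.07 in the same order.

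The difference of the genotype effect between populations was tested in the same limma fit. Against lung CD103+ cells 0 genes were called, with 372 (2.42%) at an unadjusted p under 0.05, and 3 were called with array weights and 2 with trend and robust variances. Cd209f was nearest, with a difference of -5.02 between the effects (limma adjusted p = 0.0555). Against liver CD11b+ cells 0 were called, with 1392 (9.06%) at an unadjusted p under 0.05, 0 with array weights and 0 with trend and robust variances. Colec12 and Cd209f were nearest there, at 3.20 and -4.32 (limma adjusted p = 0.281 each). Against BMDC 20 genes were called (0.13%, with 5.08% at an unadjusted p under 0.05), and 9 of these were among the 52: Colec12, Angptl4 and Arg1, which rose, and Cd209f, Adam23, Adgra2, Gpr141b, Ngfr and Adam19, which fell. Colec12 and Angptl4 rose more in lung CD11b+ cells, and Arg1 rose more in BMDC. The 6 genes that fell stood between 0.07 and 0.46 in BMDC. BMDC came from younger mice and from culture, so population, age and culture cannot be told apart.

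**Figure D5:**
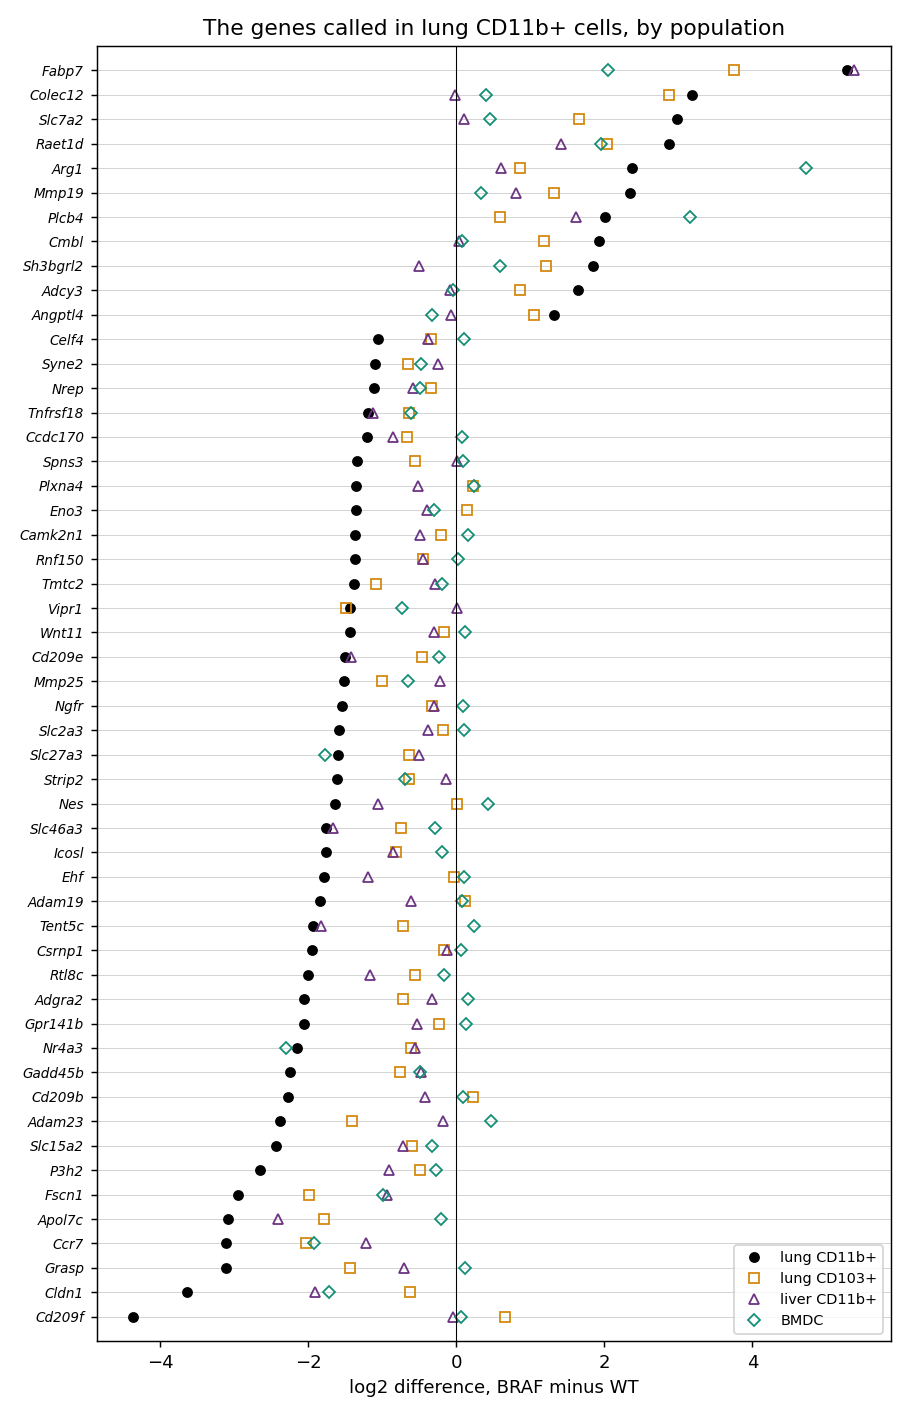
Log2 difference (BRAF minus WT) of the 52 genes called in lung CD11b+ cells, in lung CD11b+ (black circles), lung CD103+ (orange squares), liver CD11b+ (purple triangles) and BMDC (green diamonds). Fabp7 is above 2 in all 4 populations, and Cd209f is at -4.37 in lung CD11b+ cells and between -0.05 and 0.65 in the others.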

How the data were processed

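RNA of 18 sorted or cultured mouse myeloid samples was measured on 1-colour Affymetrix gene arrays, with total RNA extracted with Trizol and labelled with biotin, per the labels' protocols. The deposited intensity values are linear. The authors' summarization and normalization steps are not given in the sources used here. Arrays were not normalized again, and log2 was taken with no added constant.

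GEO's platform annotation pairs 21425 of the 24922 probe sets with 1 symbol and 1399 with several, and 2098 are unnamed here. RefSeq updated 0 symbols. For 921 genes with several probe sets the one of highest mean was used. Genes entered the test when 2 or more arrays had them over that array's 30th percentile. With limma 3.58.1 (R 4.3.3), means of 8 groups were fitted to all 18 arrays, which left 10 residual degrees of freedom, and the fit was tested on simulated data. Errors are standard errors, and adjusted p-values are Benjamini-Hochberg over 15365 genes. Leaving out 1 array assumes that the lone array varies like other groups. The number of arrays limits the precision. Tables used pandas 2.3.3 in Python 3.11.15, and plots matplotlib 3.10.9.

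The members, the tests and the 48 gene lists (1281 entries, 1116 tested) were chosen with earlier results of these data known, and lists are described by counts and medians without a test. The text names, by rule, Braf, Itgax, Itgam, Itgae, Ccr7 and Bcl2l1, every called gene, the 12 largest uncalled differences each way without overlap, and the 6 smallest p per list and per interaction contrast. Marker genes and further list members were named after their values were seen. Same-numbered lung CD11b+ and CD103+ arrays deviated together (across genes, r = 0.22 for BRAF and 0.159 for WT), so a random replicate block was fitted. Promoters came from RefSeq (GRCm38.p6).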

Additional observations from a re-analysis of the deposited data

Results flagged for a closer look

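The genotype effect (BRAF minus WT) differed between lung CD11b+ cells and BMDC for 20 genes in the limma test of the difference itself (Benjamini-Hochberg adjusted p under 0.05 over 15365 genes). Values below are log2 differences of the effect, lung CD11b+ minus BMDC. For 6 genes called lower in lung CD11b+ cells the difference was -4.44 (Cd209f), -2.84 (Adam23), -2.21 (Adgra2), -2.19 (Gpr141b), -1.92 (Adam19) and -1.64 (Ngfr). For genes called higher there it was 2.79 (Colec12), 1.64 (Angptl4) and -2.36 (Arg1, which rose in both).

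For genes that were high in BRAF BMDC and not called in lung CD11b+ cells the difference was -4.88 (Ccl7, a monocyte chemokine, 0.16 in lung and 5.04 in BMDC), -4.66 (Mmp13, a collagenase), -4.27 (Serpinb10) and -3.10 (Serpinb2). The difference was also negative for Srgap3 (-2.18), Ctnnd2 (-2.17), Mef2c (-1.96), Hdac9 (-1.86), Septin3 (-1.83) and Inpp4b (-1.65), which ran from -1.33 to -0.77 in lung and from 0.72 to 1.16 in BMDC. It was 2.15 for Gprc5c.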

How the results depend on the processing

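Of the 52 genes called in lung CD11b+ cells, 50 lost their call under at least 1 of the 16 alternatives tried. Their direction did not turn, which the lack of overlap between the genotypes fixes when 1 array is left out. The count was 369 with array weights, 149 without the 2 arrays of narrowest spread, 7 in a fit of only the 8 lung arrays, and 7 to 97 without 1 lung CD11b+ array. With the replicate number as a random block it was 6 in the 8 lung arrays and, in a fit added after seeing the data, 48 of the 52 over all 18 arrays. Without the block the count was 7 in the 8 lung arrays and 74 in the 4 lung CD11b+ arrays alone. Why it differed was not tested. Under quantile normalization, median centring, other filters, probe set means, trend and robust variances or the 4 lung CD11b+ arrays alone it was 39 to 74.

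Against lung CD103+ cells the count of 0 became 3 with array weights, 2 with trend and robust variances, 2 with the replicate block over all 18 arrays, and 0 to 22 without 1 array. Against liver it became 5 without the 2 narrow arrays and 0 to 29 without 1 array. Against BMDC the count of 20 became 11 with quantile normalization, 11 with centring, 381 with array weights, 42 without the 2 narrow arrays and 2 to 46 without 1 array. With 2 arrays per genotype, single calls depend on each array.

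Some differences that were not called changed sign, among them the following. Braf, at -0.03, was 0.10 with quantile normalization, 0.05 with centring, and -0.30 and 0.24 without WT replicate 3 or 1. Without BRAF replicate 1 or 2 the value was -0.10 and 0.35 for Arg2, 0.01 and -2.56 for Idi1, -0.01 and 0.74 for Itgam, 0.33 and -0.16 for Itgax, -1.48 and 0.38 for Mmp13, -0.79 and 1.40 for Pecam1, 0.12 and -0.96 for Serpinb10, and -2.07 for Vsig4 without BRAF replicate 1. For Cd3e it was -0.52 and 0.06 without WT replicate 3 or 1. The cause was not tested. For each of these genes the BRAF and WT arrays overlapped.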
